A study of Mus musculus with 4 samples.

Results

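Tcf21 fibroblasts of the sinoatrial node (SAN) region were the subject of this section. A cell barcode of the SAN library was taken as a member when it had at least 500 genes, a muscle score under 1.5, at least 1 unique molecular identifier (UMI) of Tcf21, UMIs of at least 3 of the 5 genes Col1a1, Col3a1, Dcn, Lum and Pdgfra, and UMIs of fewer than 3 of the 5 mesothelial genes Upk3b, Upk1b, Msln, Muc16 and Krt19. The muscle score was the mean of ln(1 + UMIs per 10000) of Tnnt2, Myh6, Ttn, Actn2 and Ryr2. This gave 1204 members among 5934 SAN barcodes with at least 500 genes, out of 22805 barcodes of all kinds in the series. The same rule gave 988 members in the AVN/His library, 246 in the left BB/PF library and 520 in the right BB/PF library.

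The 4 libraries were 10x Genomics 3' libraries of regions microdissected from hearts of wild-type CD1 mouse embryos at embryonic day 16.5, with no allele or treatment that differed between them. They covered the SAN region (Zone I), the atrioventricular node and His bundle (AVN/His) region (Zone II), and the bundle branch and Purkinje fiber (BB/PF) region (Zone III) from each of the ventricles, left and right. CD1 is an outbred stock, and the number of embryos behind each library was not given in the sources used here. Each region was sampled by 1 library, so region, library and embryos cannot be told apart, no test between regions was possible and no p-value is given. Every interval below is an exact 95% interval that covers counting error only.

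Most fibroblasts of the heart descend from the epicardium, the outer cell layer of the organ, from which cells migrate inward during development. Tcf21 is a basic helix-loop-helix transcription factor that epicardium-derived cells need to become fibroblasts, and it stays on in resident cardiac fibroblasts. These cells deposit fibrillar collagens and proteoglycans, signal to myocytes and vessels, and surround the cells of the sinoatrial node in connective tissue.

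The members were sequenced to similar depths. Their median UMI counts per barcode were 7329 in the SAN, 7596.5 in the AVN/His, 9010 in the left BB/PF and 9330.5 in the right BB/PF library, and their summed UMIs were 9875177, 8302066, 2316240 and 5125547. Values of the 4 libraries are given in this order throughout, as CPM (UMIs of a gene per 1000000 summed UMIs of the members), unless the libraries are named. Pairs of libraries shared 38 to 54 barcode sequences. UMIs of 3 or more of 5 endothelial genes were present in 30, 16, 2 and 9 members, UMIs of 3 or more of 5 macrophage genes in 17, 5, 0 and 1, and over 1% hemoglobin UMIs in 32, 9, 5 and 12.

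Of the markers that name these cells, Tcf21 was present in all members by the rule. Dcn, which the rule also counts, was present in nearly all and Lum in fewer. Dpep1, which the rule did not use, was seen in 51.6% of SAN members and in fewer elsewhere, and its level was highest in the SAN library. The members were chosen by their UMIs of Tcf21, Col1a1, Col3a1, Dcn, Lum and Pdgfra, of the muscle genes and of the mesothelial genes, so the values of these genes are a description. Tcf21 stood at 454, 369, 408 and 420 CPM. Dcn, which encodes the collagen-binding proteoglycan decorin, stood at 3443, 3265, 2252 and 2459 CPM and was seen in 99.4% of SAN members. Lum, which encodes the related proteoglycan lumican, stood at 764, 975, 439 and 449 CPM, so its highest level was in the AVN/His library. The fibrillar collagen genes Col1a1 (4264, 2820, 1670 and 2480 CPM) and Col3a1 (4176, 2935, 1865 and 2464 CPM) were highest in the SAN library. Pdgfra, a receptor for platelet-derived growth factor, was nearly level at 122, 140, 124 and 129 CPM.

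Dpep1 encodes a membrane dipeptidase. It stood at 176, 68.8, 23.3 and 13.1 CPM, and the SAN level was 2.55 times that of the AVN/His library (2.32 to 2.81) and 13.4 times that of the right BB/PF library (10.5 to 17.4). It was seen in 51.6%, 21.1%, 14.2% and 10.6% of the members. Endothelial barcodes, which should lack it, had a Dpep1 UMI in 0.785% of cases in the SAN library at a median of 9095 UMIs. The muscle genes that the rule held down were present at low levels, with Tnnt2 at 158, 190, 120 and 213 CPM and Myh6, which is prominent in atrial muscle, at 31.5, 6.26, 2.59 and 4.68 CPM. Among the mesothelial genes, Upk3b stood at 7.70 and 3.37 CPM in the SAN and AVN/His libraries and had no UMI in the BB/PF members.

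Values on both sides of the rule's limits are given as a description, since Dcn is itself a gene that the rule counts. The 236 SAN members with exactly 1 Tcf21 UMI had Dcn at 2595 CPM and Dpep1 at 108 CPM. The 341 barcodes that met every other condition but had no Tcf21 UMI had Dcn at 1434 CPM and Dpep1 at 36.4 CPM, at a similar median depth (6509.5 against 6622 UMIs). The 80 members with 3 of the 5 matrix genes had Dcn at 880 CPM, and the 27 barcodes with 2 of them had 6.72 CPM. The number of barcodes near the other limits was 6 or fewer on either side.

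Tcf21 fibroblasts made up 20.3% of SAN barcodes (19.3% to 21.3%), 17.5% of AVN/His barcodes (16.5% to 18.5%), 4.82% of left BB/PF barcodes (4.25% to 5.45%) and 11.9% of right BB/PF barcodes (10.99% to 12.9%). Among barcodes with a muscle score under 1.5, the shares were 44.6%, 34.9%, 30.6% and 35.2%. After each barcode had been thinned to 2000 UMIs and the rule applied again, the shares of all barcodes were 12.2%, 9.14%, 2.45% and 5.68%, in the same order.

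A gene was considered when 5% or more of the members of any library held a UMI of it and it was no gene of the rule. Of the 9782 genes considered, 129 were at least 2-fold above the highest of the other 3 libraries in the SAN members (1.32%). A further 88 genes were at most 0.5-fold of the lowest (0.900%). Below, "higher" and "lower" mean these calls, which rest on size and not on a test. The AVN/His members were the nearest to the SAN members for many of them: 77 of the 129 higher genes had AVN/His as the highest of the others (59.7%, against 48.3% of all genes considered), 55 of the 88 lower genes had it as the lowest (62.5%, against 23.6%), and without the AVN/His library 358 genes were higher and 147 lower. Taken library by library, 217 genes were at least 2-fold above AVN/His (2.22%) and 211 at most 0.5-fold of it (2.16%). The numbers were 676 (6.91%) and 232 (2.37%) against the left and 500 (5.11%) and 191 (1.95%) against the right BB/PF members. The left and right BB/PF members differed by that much in 117 genes in favor of the left (1.20%) and 170 in favor of the right (1.74%).

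A narrower set was formed of 901 genes whose mean level in fibroblasts of the 4 libraries was at least 2-fold above that in both muscle and endothelial barcodes, and these are called fibroblast-enriched. In the SAN members 55 of them were higher (6.10%) and 37 were lower (4.11%), against 1.32% and 0.900% of all genes considered. The SAN members count in the mean, so a gene can enter the set through its SAN level alone. That can raise the share of higher genes, so these shares are a description. The highest 10 were Efemp1, Wfdc18, Lrat, Gsta3, Fmo2, Cxcl2, Cdh10, Il1rapl1, Il33 and Cyr61. The lowest 10 were Scara5, Steap3, Tmem56, Adamtsl3, Gpr174, Nrxn2, Prelp, P2ry1, Col15a1 and Nuak2.

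**Figure D1:**
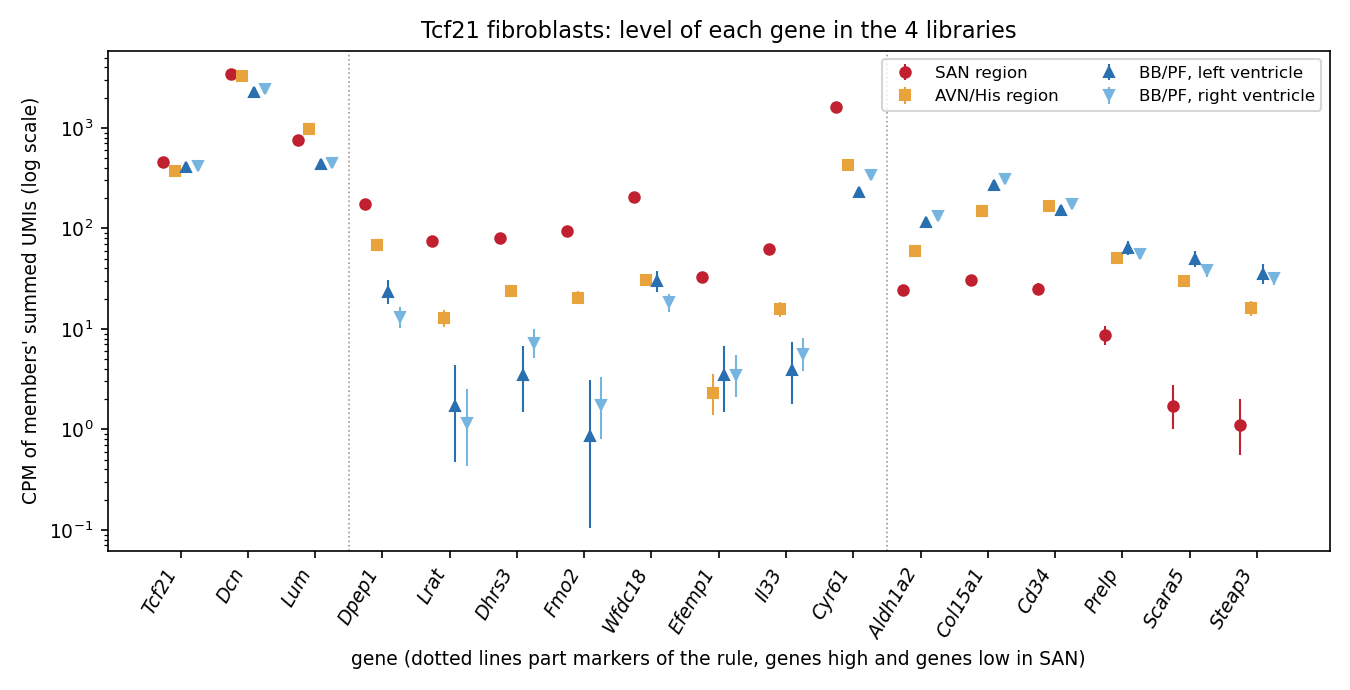
CPM (log scale) of 17 genes in the Tcf21 fibroblasts of the 4 libraries, with exact 95% Poisson intervals for counting error. Tcf21 lies between 369 and 454 CPM, the middle genes peak in the SAN region (Lrat at 75.6 against 12.9 CPM in AVN/His and below 2 CPM in BB/PF), and the genes on the right are lowest there (Scara5 at 1.72 against 30.0 to 50.1 CPM).

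Genes of retinoid handling were at opposite extremes. Retinol is stored as an ester by the enzyme encoded by Lrat, retinaldehyde is reduced back to retinol by the enzyme encoded by Dhrs3, and retinaldehyde is oxidized to retinoic acid by the enzymes of the Aldh1a genes, of which Aldh1a2 serves the embryonic epicardium. Lrat and Dhrs3 were higher in SAN members and Aldh1a2 was lower. Lrat stood at 75.6, 12.9, 1.73 and 1.17 CPM, with UMIs in 35.0%, 6.07%, 0.813% and 0.962% of members. The SAN level was 5.87 times the AVN/His level (4.79 to 7.26) and 64.6 times the right BB/PF level (29.6 to 177). Only 0.314% of SAN endothelial barcodes had a Lrat UMI. Dhrs3 stood at 80.0, 24.0, 3.45 and 7.22 CPM, and the SAN level was 3.34 times the next highest (2.85 to 3.92). The libraries fell in the same sequence for both genes apart from the order of the BB/PF pair. In endothelial barcodes Dhrs3 stood at 15.9 CPM in the SAN and 14.5 to 40.6 CPM in the other libraries, so that the SAN was neither the highest nor the lowest.

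Aldh1a2 stood at 24.3, 60.1, 115 and 133 CPM, the reverse sequence of regions. Its SAN level was 0.404 times the lowest of the others (0.345 to 0.473), and it was seen in 15.5% of SAN members against 26.0%, 50.8% and 57.5%. Rarb, which encodes a retinoic acid receptor and is itself switched on by retinoic acid, stood at 36.0, 21.6, 19.9 and 14.6 CPM, 1.67 times the next highest (1.39 to 2.01). Cyp26a1, which encodes an enzyme that degrades retinoic acid, was almost confined to AVN/His members, at 0.304, 15.2, 2.16 and 0 CPM, with 3 UMIs in the SAN. Of the 21 genes of the pathway list, 13 were considered, 2 were higher and 1 was lower, against 1.32% and 0.900% of all genes considered. The median log2 ratio of SAN to the mean of the others was 0.50 against 0.01 over all genes considered. The list's summed level was 1571, 1065, 825 and 782 CPM in members. Its sum was also highest in the SAN library in endothelial (1065, 570, 531 and 545 CPM) and muscle barcodes (118, 94.7, 72.8 and 73.8 CPM). In macrophage barcodes it was 217, 236, 71.2 and 143 CPM. The shift of the list was thus not particular to the fibroblasts.

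Because Lrat and Aldh1a2 differed in opposite directions, the 250 bases before the start of each gene are shown, from RefSeq (GRCm38.p6) and 5′ to 3′ on the strand of the gene. The Lrat window is chr3:82903975-82904224 on the minus strand and the Aldh1a2 window is chr9:71215539-71215788 on the plus strand. Capitals mark CANNTG, the E-box letters that basic helix-loop-helix factors such as Tcf21 can bind, which read the same on both strands. This motif was in 66.2% of 32851 mouse promoter windows of the same set, which run from 250 bases before to 50 bases after each gene start, so its presence is common.
Lrat: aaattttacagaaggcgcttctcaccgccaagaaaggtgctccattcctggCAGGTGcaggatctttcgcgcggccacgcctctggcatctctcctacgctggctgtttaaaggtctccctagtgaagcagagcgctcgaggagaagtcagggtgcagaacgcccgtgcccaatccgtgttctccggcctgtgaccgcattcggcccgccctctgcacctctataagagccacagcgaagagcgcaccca
Aldh1a2: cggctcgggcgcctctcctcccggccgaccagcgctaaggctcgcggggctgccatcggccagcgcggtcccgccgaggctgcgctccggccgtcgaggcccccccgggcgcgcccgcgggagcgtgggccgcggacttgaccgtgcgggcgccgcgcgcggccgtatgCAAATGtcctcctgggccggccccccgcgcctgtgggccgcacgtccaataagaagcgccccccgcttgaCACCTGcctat
The Lrat window held 1 match, from 199 to 194 bases before the start, and the Aldh1a2 window held 2, from 81 to 76 and from 11 to 6 bases before it. These are matches of letters and no binding was measured. In GENCODE M21 coordinates (GRCm38) the Lrat gene runs from 82892579 to 82903973 on chromosome 3, Aldh1a2 from 71215789 to 71296243 on chromosome 9, Dhrs3 from 144892827 to 144928209 on chromosome 4, Dpep1 from 123186242 to 123201812 on chromosome 8 and Tcf21 from 22817281 to 22820174 on chromosome 10.

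Extracellular matrix genes were mixed, with the bulk collagens moderately high in SAN members and a few minor components far apart. Of 32 collagen chain genes 25 were considered, 0 were higher and 3 were lower, against 1.32% and 0.900% of all genes considered. Their median log2 ratio was 0.07. Col1a2, the partner chain of Col1a1, stood at 4080, 2706, 1869 and 2320 CPM, 1.51 times the AVN/His level (1.48 to 1.53). Col12a1, a collagen that decorates type I fibrils, stood at 55.8, 28.8, 7.77 and 5.07 CPM, 1.94 times AVN/His (1.66 to 2.27) and 11 times the right BB/PF level (7.43 to 17.0). Col16a1, another fibril-associated collagen, stood at 63.9, 46.9, 28.5 and 35.7 CPM. The lower genes were Col15a1, Col9a1 and Col9a3. Col15a1, a collagen of the zone next to basement membranes, stood at 30.4, 147, 270 and 311 CPM, 0.206 times the AVN/His level (0.181 to 0.234), and was seen in 15.0%, 40.6%, 69.5% and 74.6% of members. Col9a3, a chain of the cartilage type IX collagen, stood at 0.304, 39.4, 6.04 and 1.17 CPM, so it set the AVN/His members apart, with 3 UMIs in the SAN members and a ratio to the right BB/PF level of 0.260 (0.0420 to 1.22).

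Among 68 matrix glycoproteins and proteoglycans 58 were considered, 4 were higher and 3 were lower, against 1.32% and 0.900% of all genes considered. Their median log2 ratio was 0.44. Efemp1, which encodes the elastic fiber protein fibulin-3, stood at 33.2, 2.29, 3.45 and 3.51 CPM, 9.46 times the highest other level (5.89 to 16.2). It was seen in 15.8% of SAN members and in 1.82% to 3.46% elsewhere, and it differed within the SAN members as given in the paragraph on sex-linked transcripts. Thbs1, which encodes the matricellular protein thrombospondin-1, stood at 281, 102, 73.0 and 104 CPM, and Tnxb, which encodes tenascin-X, at 177, 60.5, 50.1 and 68.9 CPM. Their SAN levels were 2.69 (2.45 to 2.96) and 2.57 times (2.29 to 2.89) the highest other level. Prelp, which encodes a leucine-rich proteoglycan that links collagen to basement membrane, was lower, at 8.61, 50.9, 64.3 and 56.2 CPM, 0.169 times the lowest of the others (0.132 to 0.214). Matn4, which encodes the matrix adaptor matrilin-4, was lower as well, at 19.3, 83.7, 107 and 61.5 CPM, 0.315 times the lowest (0.262 to 0.378).

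In the list of matrix processing genes and proteases 43 of 53 were considered, 1 was higher and 1 was lower. Over all genes considered 1.32% were higher and 0.900% lower, so these counts are near the overall shares. The lower gene was Adamtsl3. This matrix protein related to the ADAMTS proteases stood at 1.11, 8.67, 7.34 and 13.3 CPM, 0.152 times the lowest other (0.0643 to 0.344). Lox, the enzyme that cross-links collagen and elastin, fell short of the call against AVN/His but not against the ventricles, at 128, 81.8, 29.4 and 34.9 CPM, 1.57 times AVN/His (1.43 to 1.73) and 4.37 times the left BB/PF level (3.42 to 5.66). Has2, the hyaluronan synthase of cardiac cushion formation, stood at 5.77, 11.7, 13.8 and 11.3 CPM.

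Secreted signals included a few of the higher genes. Of 98 growth factors, morphogens and antagonists 53 were considered, 4 were higher and 0 were lower, against 1.32% and 0.900% of all genes considered. Their median log2 ratio was 0.29. The SAN level was above that of each other library for 16 of the 53 and below each for 8, beside 2681 and 2439 of all 9782 genes considered. The summed level of the list was 13040, 13275, 8549 and 8690 CPM, so that the SAN was not the highest. Cyr61, the matricellular protein CCN1, stood at 1611, 427, 233 and 338 CPM, 3.77 times AVN/His (3.64 to 3.92), with UMIs in 86.7% of SAN members and 52.0% to 57.9% elsewhere. Il33, an alarm cytokine of the interleukin-1 family, stood at 62.6, 15.8, 3.89 and 5.66 CPM, 3.97 times AVN/His (3.28 to 4.83) and 16.1 times the left BB/PF level (8.43 to 35.4). Igfbp6, a binding protein of insulin-like growth factors, stood at 8.51, 2.77, 0.432 and 0.390 CPM, 3.07 times AVN/His (1.92 to 5.10). The lowest of the list were Frzb, a secreted Wnt antagonist, at 39.7, 89.0, 112 and 73.2 CPM, and Gdf10, a member of the TGF-β superfamily, at 9.01, 14.8, 18.1 and 29.3 CPM, neither of which was called.

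Among 43 axon guidance and neurotrophic ligands 19 were considered, 2 were higher and 0 were lower, against 1.32% and 0.900% of all genes considered. Their median log2 ratio was 0.33. Flrt3, a guidance and adhesion protein, stood at 16.6, 7.47, 0.432 and 1.17 CPM, 2.22 times AVN/His (1.65 to 3.03). Ntm, an adhesion molecule of neurons, stood at 34.8, 15.4, 4.32 and 4.10 CPM, 2.26 times AVN/His (1.84 to 2.79), and its ratio in endothelial barcodes was 12.6. Slit2, a repellent ligand of Robo receptors, stood at 141, 87.3, 40.6 and 75.1 CPM, 1.62 times AVN/His (1.48 to 1.77). Its receptor gene Robo2 was lower, at 9.01, 47.5, 33.7 and 27.5 CPM, 0.328 times the lowest other (0.248 to 0.430).

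Receptors and surface proteins included several of the lowest ratios. Cd34, a sialomucin of progenitor, endothelial and stromal cells, stood at 25.0, 167, 151 and 175 CPM, 0.166 times the lowest of the others (0.140 to 0.195), and was seen in 10.2% of SAN members against 52.0% to 64.6% elsewhere. In endothelial barcodes Cd34 was also lowest in the SAN library, at 268 CPM against 641 to 665. Scara5, a scavenger receptor for ferritin, stood at 1.72, 30.0, 50.1 and 38.2 CPM, 0.0574 times the lowest other (0.0329 to 0.0938). Steap3, a ferrireductase that acts in iron uptake, stood at 1.11, 16.1, 35.4 and 31.8 CPM, 0.0690 times the lowest other (0.0336 to 0.128). P2ry1, a receptor for ADP, stood at 2.33, 13.5, 19.4 and 17.4 CPM. Gpr174, a receptor for lysophosphatidylserine, had 0 UMIs in the SAN members and 1.93, 16.0 and 7.41 CPM in the others, so with the floor of 3 counts for a library at 0 the SAN level was at most 0.158 times the AVN/His level.

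In the list of growth factor receptors and hedgehog genes 53 of 68 were considered, 2 were higher and 3 were lower. Over all genes considered 1.32% were higher and 0.900% lower. Npr3, the clearance receptor for natriuretic peptides, stood at 34.9, 11.3, 1.73 and 8.39 CPM, 3.09 times AVN/His (2.45 to 3.92), and also marks endocardium, where the ratio in endothelial barcodes was 3.79. Agtr2, the type 2 receptor for angiotensin II, stood at 15.3, 6.14, 6.48 and 1.76 CPM, 2.36 times the highest other (1.39 to 4.32). Cell adhesion genes that were higher included Cdh10, a type II cadherin, at 35.3, 8.67, 4.75 and 7.41 CPM, 4.08 times AVN/His (3.15 to 5.33), and Il1rapl1, a synaptic adhesion protein, at 12.96, 3.25, 0 and 0.585 CPM, 3.99 times AVN/His (2.62 to 6.28).

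Transcription factors gave 6 higher and 2 lower genes among 68 considered of 115, against 1.32% and 0.900% of all genes considered. Their median log2 ratio was 0.15. Id4, an inhibitor of basic helix-loop-helix factors, stood at 73.8, 17.5, 20.7 and 9.37 CPM, 3.56 times the highest other (2.66 to 4.88), and its ratio in endothelial barcodes was 6.36. Hey1, a target of Notch signaling, stood at 94.2, 28.1, 25.5 and 32.6 CPM, 2.89 times the highest other (2.45 to 3.43), and its ratio in endothelial barcodes was 0.756. Nr4a1, an early-response nuclear receptor, stood at 273, 54.8, 67.8 and 106 CPM, 2.56 times the highest other (2.34 to 2.82). Nr2f1, Osr1 and Foxs1 were the other higher genes, with ratios of 2.36, 2.02 and 2.28, and they are named to complete the count. Etv4 (5.37, 11.7, 32.8 and 16.8 CPM) and Etv1 (22.3, 59.99, 51.8 and 59.9 CPM), which act downstream of FGF signaling, were the lower genes, at 0.459 (0.322 to 0.649) and 0.430 times (0.343 to 0.542) the lowest other. Of 30 Hox genes 1 was considered, Hoxb2, at 8.41, 4.82, 8.20 and 7.22 CPM.

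The epicardial transcription factor genes Wt1 and Tbx18 did not move together. Wt1 stood at 76.6, 37.9, 51.8 and 43.1 CPM, 1.48 times the highest other (1.22 to 1.81), and Tbx18 at 76.4, 84.3, 116 and 81.4 CPM, 0.938 times the lowest (0.832 to 1.06). Of 14 epicardial markers 3 were considered, and the third was Aldh1a2. The markers' summed level was 197, 191, 283 and 258 CPM.

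Enzymes of small molecules and secreted inhibitors supplied several of the highest ratios. Fmo2, a flavin monooxygenase of xenobiotic metabolism, stood at 95.3, 20.5, 0.864 and 1.76 CPM, 4.65 times AVN/His (3.95 to 5.51), and was seen in 40.6%, 9.51%, 0.813% and 1.15% of members. Gsta3, a glutathione transferase, stood at 9.62, 0.964, 1.73 and 0.780 CPM, 5.57 times the highest other (2.11 to 20.9). Wfdc18, a small secreted protein with a whey acidic protein domain, stood at 205, 30.4, 29.8 and 18.3 CPM, 6.77 times AVN/His (5.93 to 7.74). In the SAN library 2.04% of endothelial barcodes had an Fmo2 UMI and 1.88% had a Wfdc18 UMI, against 40.6% and 32.1% of the members.

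Other genes at the extremes belonged to no list. Of those given here, Rnd1, AY036118 and Limch1 were not among the fibroblast-enriched genes. Rnd1, a small GTPase that loosens the actin cytoskeleton, stood at 26.5, 3.37, 1.73 and 3.32 CPM, 7.87 times AVN/His (5.32 to 12.1). The transcript AY036118 stood at 61.1, 5.54, 7.34 and 11.1 CPM, and its ratio of 5.49 was close to that in endothelial barcodes, 4.46. Among the low genes, Limch1, which encodes a regulator of nonmuscle myosin, stood at 8.20, 87.1, 91.5 and 68.3 CPM, 0.120 times the lowest other (0.0931 to 0.153). Nrxn2, which encodes the synaptic protein neurexin-2, stood at 1.32, 8.07, 22.9 and 19.3 CPM, Tmem56 at 0.405, 3.13, 5.18 and 7.41 CPM, and the kinase gene Nuak2 at 1.22, 5.78, 8.64 and 5.66 CPM. All 3 were lower in the SAN members than in any other library by more than 2-fold.

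Immediate early and stress genes were higher as a group in the SAN members, and this was not so in endothelial barcodes of the same libraries. Of 24 genes 22 were considered, 9 were higher and 0 were lower, against 1.32% and 0.900% of all genes considered. All 22 were above each of the other libraries, which held for 27.4% of all genes considered, and their median log2 ratio was 1.25. Their summed level was 9854, 3715, 3820 and 4849 CPM in members, 2101, 2212, 1935 and 2666 CPM in endothelial barcodes, 10155, 4454, 9430 and 8159 CPM in macrophage barcodes and 2184, 2059, 1832 and 1701 CPM in muscle barcodes. Genes of this list respond within minutes to many stimuli, the handling of cells among them.

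Dnajb1, a heat shock co-chaperone, stood at 293, 66.4, 47.5 and 82.5 CPM, 3.55 times the highest other (3.21 to 3.94). Fosb, a subunit of the AP-1 factor, stood at 120, 29.4, 34.1 and 25.8 CPM, 3.52 times the highest other (2.80 to 4.48). Hspa1a, the inducible HSP70 chaperone, stood at 766, 218, 92.4 and 231 CPM, 3.31 times the highest other (3.12 to 3.53). Hspa1a and its neighbor Hspa1b are near-identical, so the split of reads between them is uncertain; Hspa1b stood at 50.8, 10.1, 4.75 and 17.95 CPM. The least apart were Jund (474, 445, 368 and 410 CPM) and Hsp90aa1 (1063, 588, 666 and 652 CPM).

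The 250 bases before the Hspa1a gene, chr17:34972157-34972406 on the minus strand of GRCm38.p6 from RefSeq, are shown because Hspa1a was among the higher genes. Capitals mark GAANNTTC, the core letters of a heat shock element, which read the same on both strands and were in 6.69% of the 32851 promoter windows.
Hspa1a: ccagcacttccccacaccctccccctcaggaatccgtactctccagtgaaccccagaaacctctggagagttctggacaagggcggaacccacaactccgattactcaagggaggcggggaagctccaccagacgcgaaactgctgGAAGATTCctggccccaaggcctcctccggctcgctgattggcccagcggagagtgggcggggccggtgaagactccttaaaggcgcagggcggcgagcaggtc
The match lay from 104 to 97 bases before the start, and no occupancy was measured.

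Complement and innate immune genes had a median log2 ratio of 0.99, with 10 of 27 considered, 2 higher and 0 lower. Over all genes considered 1.32% were higher and 0.900% lower. Cfi, a serine protease that inactivates C3b, stood at 36.9, 13.4, 10.8 and 7.02 CPM, 2.76 times AVN/His (2.22 to 3.44). Cxcl10, a chemokine induced by interferon, stood at 18.2, 1.93, 2.59 and 5.85 CPM, 3.11 times the highest other (2.11 to 4.75). In the Xist-only SAN members described below its ratio was 1.35 (0.536 to 3.02), from 8 UMIs, and in the Y-only members 3.50 (2.33 to 5.40). The summed level of the list was 1303, 416, 568 and 770 CPM in members and 3164, 807, 1434 and 2459 CPM in macrophage barcodes. Cxcl2, a neutrophil chemokine outside this list, stood at 58.3, 6.26, 5.61 and 12.9 CPM, but in SAN macrophage barcodes it stood at 5291 CPM and only 8.47% of SAN members had a UMI of it. Without members that met the endothelial or macrophage rule or held over 1% hemoglobin UMIs its ratio was 1.90 instead of 4.53. The macrophage gene Lyz2 likewise went from 4.57 to 1.72. The macrophage markers' summed level was 126, 56.6, 8.64 and 26.5 CPM in members.

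Cell cycle genes were nearly level between libraries. All 30 cell cycle genes were considered, 0 were higher and 0 were lower, against 1.32% and 0.900% of all genes considered. The median log2 ratio of the list was -0.08. Their summed level was 2026, 2101, 2506 and 1929 CPM. Ccnd1, which encodes cyclin D1, was not in that list and is named after its values were seen, at 45.1, 153, 208 and 207 CPM, 0.296 times the lowest other (0.265 to 0.330).

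**Figure D2:**
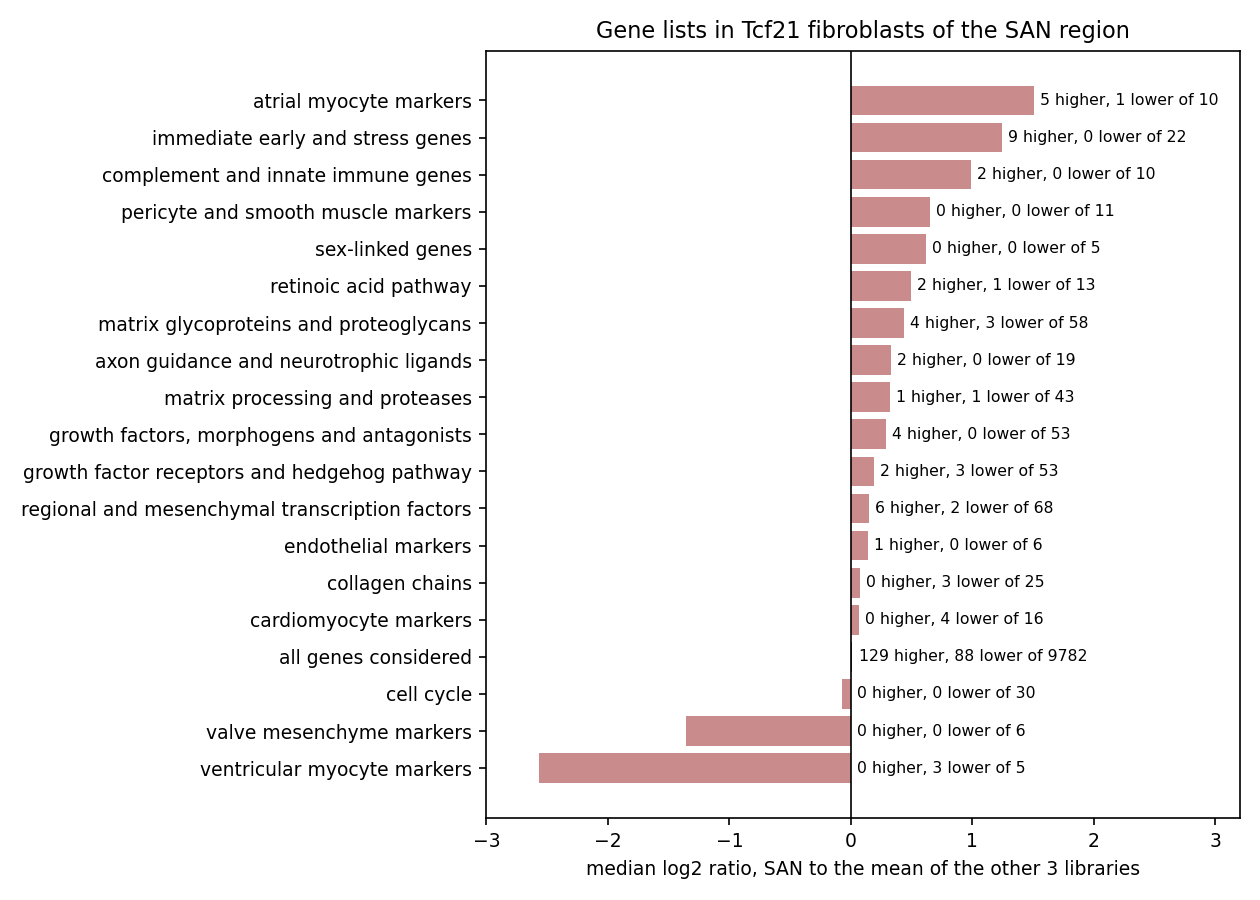
Median log2 ratio of SAN to the mean of the other 3 libraries for each gene list with at least 5 genes considered, with the number of genes at least 2-fold higher or lower written beside each bar. Immediate early and stress genes (median 1.25, 9 of 22 higher) and atrial myocyte markers (median 1.505) lie highest, ventricular myocyte markers lowest, and all genes considered lie at 0.01.

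RNA of myocytes was present in the members and followed the region that each library came from. Among the higher genes the largest ratio to the highest other library was that of Nppa, the atrial natriuretic peptide precursor, at 293, 9.28, 12.5 and 8.39 CPM in members, 23.4 times the highest other (16.2 to 35.0). It stood at 246 CPM in SAN endothelial barcodes and 433 CPM in SAN macrophage barcodes, where its ratios to the highest other library were 26.2 and 16.2. Myl7, the atrial myosin light chain, stood at 489, 44.9, 9.50 and 7.80 CPM in members and at 407 CPM in SAN endothelial barcodes. Sln, which encodes the atrial calcium pump regulator sarcolipin, stood at 115, 13.3, 0 and 0.390 CPM in members and at 93.2 CPM in SAN endothelial barcodes. A Nppa UMI was present in 80.7% of SAN members, 87.1% of SAN endothelial barcodes and 85.7% of SAN macrophage barcodes, so the share in members is not above the background of that library and is not read as fibroblast expression.

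The ventricular genes gave the mirror image. Myl2, the ventricular myosin light chain, stood at 4.66, 272, 223 and 323 CPM in members, and Myl3 at 8.91, 127, 115 and 171 CPM. Their ratios to the lowest other library were 0.0209 (0.0151 to 0.0283) and 0.0773 (0.0601 to 0.0987). The summed level of 18 cardiomyocyte markers, Myl3 among them, was 1565, 1542, 1272 and 1499 CPM. Of these 16 were considered, 0 were higher and 4 were lower, against 0.900% of all genes considered that were lower. The rule also held down muscle genes, so the similar sums do not show equal amounts of myocyte RNA. Of 16 atrial markers 10 were considered, 5 were higher and 1 was lower, and of 8 ventricular markers 5 were considered, 0 were higher and 3 were lower.

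Among markers of other cell types, 1 of 6 endothelial (Npr3) and 1 of 1 macrophage markers considered (Lyz2) were higher. Of 3 epicardial markers considered 1 was lower (Aldh1a2). Of the 4 erythroid, 11 pericyte and smooth muscle, 2 Schwann cell and neuron and 6 valve mesenchyme markers considered, 0 were called. Over all genes considered 1.32% were higher and 0.900% lower, and lists this short give no firm share. Endothelial markers summed to 361, 614, 193 and 265 CPM, erythroid markers to 6346, 2863, 4391 and 9067 CPM, Schwann cell and neuron markers to 15.2, 13.01, 22.02 and 14.1 CPM, and pericyte and smooth muscle markers to 1582, 1136, 736 and 853 CPM. Acta2, smooth muscle actin, led the last group at 745, 558, 369 and 364 CPM, and Rgs5, a pericyte gene, stood at 171, 79.6, 55.3 and 102 CPM. Neither was called. Valve mesenchyme markers summed to 271, 528, 310 and 262 CPM, and Scx, a tendon and valve transcription factor, set the AVN/His members apart at 0.709, 23.9, 4.32 and 0.976 CPM. No endothelial, macrophage, erythroid or pericyte and smooth muscle marker was at 0 in the SAN members. The part of any of these cells in the members' values was not tested beyond leaving out members with their markers.

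For most of the higher genes the difference between libraries was shared with endothelial or muscle barcodes of the same libraries. Of the 129 higher genes 36 were also at least 2-fold above the highest other library in endothelial barcodes (27.9%, against 2.43% of all genes considered), 69 were so in muscle barcodes (53.5%, against 5.25%), and 50 were so in neither (38.8%). Of the 55 fibroblast-enriched higher genes, 15 were so in neither (27.3%). Of the 88 lower genes 14 were lower in endothelial barcodes (15.9%, against 1.08%). Lrat, Fmo2, Hspa1a, Cyr61 and Dhrs3, picked from the higher genes, had endothelial ratios of 1.03, 0.759, 0.661, 1.02 and 0.391. The Lrat ratio rests on very few endothelial UMIs, so it cannot show whether the libraries differ in Lrat there. Their ratios in muscle barcodes are not reported here, so these values do not show that the genes were particular to fibroblasts. In muscle barcodes of the SAN library Lrat was seen in 1.24%, Fmo2 in 2.01% and Dpep1 in 2.32%, all far below the members, and Tcf21 itself in 3.65%.

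**Figure D3:**
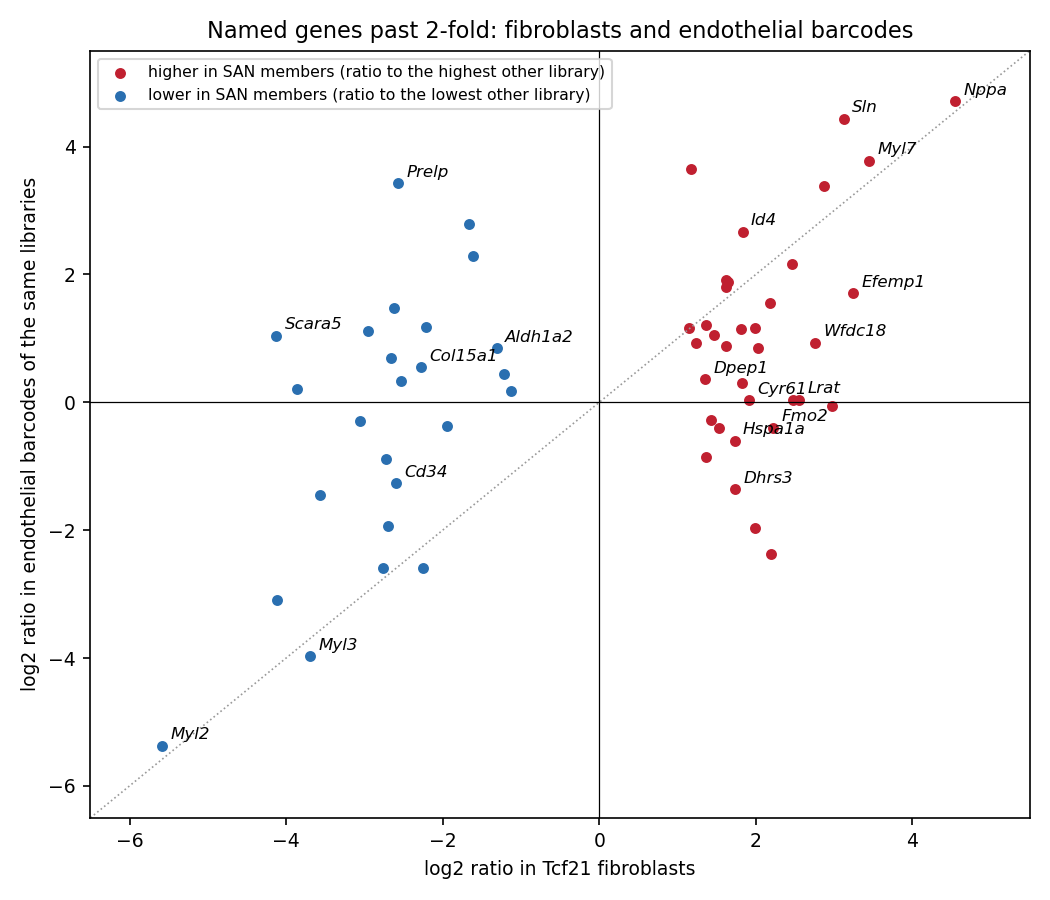
Log2 ratio of the SAN library in Tcf21 fibroblasts (x axis) and in endothelial barcodes (y axis) for the named genes past 2-fold, to the highest other library for higher genes (red) and to the lowest for lower genes (blue), with a library at 0 UMIs set to 3. Nppa, Myl7, Sln, Myl2 and Myl3 lie near the dotted diagonal of equal ratios, while Lrat, Fmo2, Hspa1a and Dhrs3 lie close to 0 or below it on the y axis. The y value of Lrat rests on very few UMIs.

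Within the SAN members, barcodes with and without a Dpep1 UMI differed in several of the genes that set the SAN region apart, but not in all. The 621 members with a Dpep1 UMI had a median of 7565 UMIs and the 583 without had 7131, so depth differed little. The genes compared were chosen after earlier values were seen. Lrat stood at 109 CPM with and 37.7 CPM without (ratio 2.90, 2.44 to 3.45), Dhrs3 at 106 and 50.9 CPM (2.08, 1.78 to 2.43), and Moxd1, a monooxygenase-like protein, at 152 and 74.6 CPM (2.04, 1.79 to 2.32). Fmo2 (1.67, 1.46 to 1.92) and Il33 (1.56, 1.32 to 1.85) were also higher with Dpep1. Efemp1 (1.18, 0.940 to 1.47), Hspa1a (0.994, 0.950 to 1.04) and the library background gene Nppa (0.951, 0.883 to 1.02) had intervals that held 1, as did Cdh10 (1.19, 0.958 to 1.48) and Scara5 (2.13, 0.698 to 7.71). Cxcl2, one of the higher genes, was lower with Dpep1 (0.475, 0.398 to 0.566), and Cd34 was higher with it (1.39, 1.07 to 1.82). Ccnd1 ran the other way, at 24.4 and 68.3 CPM (0.358, 0.289 to 0.441), as did Col15a1 (0.528, 0.414 to 0.671) and Prelp (0.509, 0.316 to 0.806).

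The rule genes Dcn (4259 and 2523 CPM, ratio 1.69), Lum (1.596) and Pdgfra (1.51) were also higher in members with Dpep1, and Tcf21 less so (1.23, 1.16 to 1.31). The AVN/His members, where 208 of 988 had a Dpep1 UMI, gave ratios on the same side for the rule genes and larger ones for some other genes, while Cd34 (0.435, 0.366 to 0.515) and Scara5 (0.458, 0.299 to 0.676) were lower with Dpep1 there. Lrat stood there at 49.5 CPM with and 2.33 CPM without Dpep1 (ratio 21.3, 12.3 to 39.6), and Fmo2 at 60.9 and 8.84 CPM (6.88, 4.96 to 9.64). Col15a1 stood at 75.4 and 168 CPM (0.448, 0.373 to 0.535). In the left and right BB/PF members, with 35 and 55 Dpep1 barcodes, the Lrat ratios of 15.9 (1.28 to 834) and 8.27 (1.11 to 61.8) rested on 4 and 6 UMIs. Lum (0.597, 0.482 to 0.732, and 0.858, 0.742 to 0.987) and Dcn (0.875, 0.809 to 0.946, and 0.942, 0.888 to 0.998) were lower with Dpep1 in both, opposite to the SAN members. The Dhrs3 ratios were 0.757 (0.0168 to 5.89) and 1.003 (0.258 to 2.82), from 8 and 37 UMIs.

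**Figure D4:**
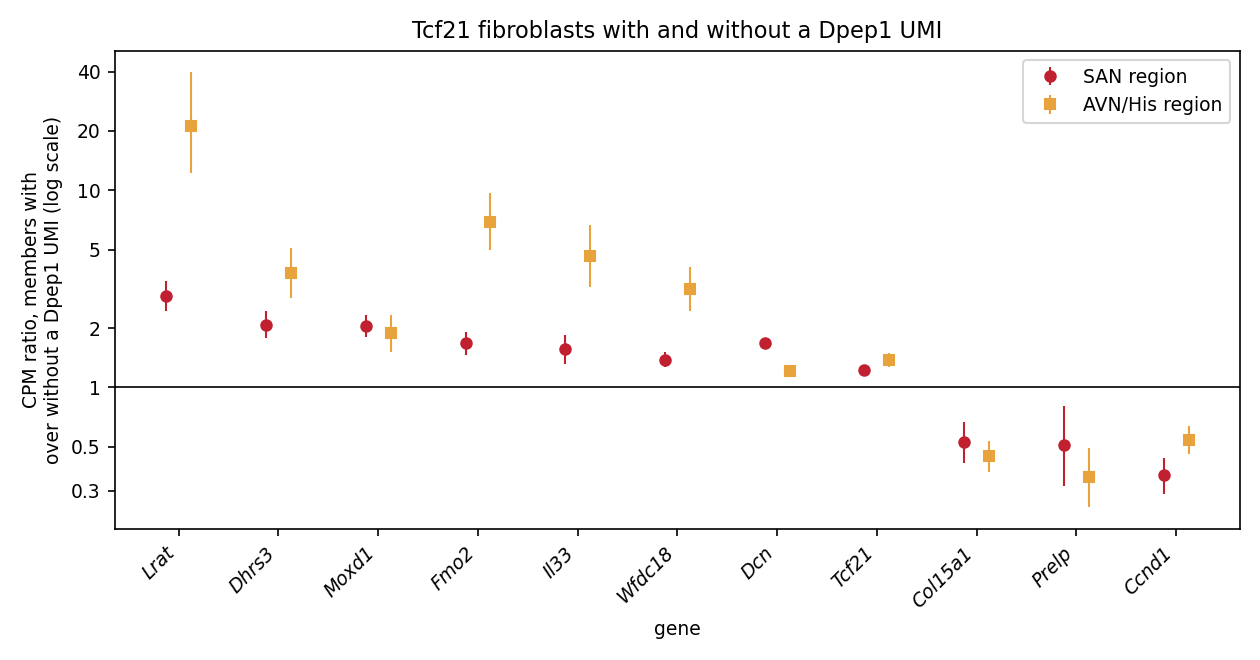
Ratio of CPM in Tcf21 fibroblasts with a Dpep1 UMI to those without (log scale), for the SAN and AVN/His libraries, with exact 95% intervals for counting error. Lrat, Dhrs3, Moxd1, Fmo2, Il33 and Wfdc18 lie above 1 and Col15a1, Prelp and Ccnd1 below 1 in both libraries, with Lrat at 2.90 in the SAN and 21.3 in the AVN/His region.

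Sex-linked transcripts showed that the libraries held cells of embryos of different sexes in unequal shares. Xist and no UMI of the 4 Y-linked genes Ddx3y, Eif2s3y, Kdm5d and Uty was seen in 10.3%, 0%, 87.4% and 31.5% of members, and Y-linked UMIs without Xist in 59.2%, 67.2%, 7.32% and 46.9%. The SAN members thus came from at least 1 embryo of each sex, and 124 Xist-only and 713 Y-only SAN members were compared separately with all members of the other libraries. UMIs of both kinds were present in 37 SAN members and of neither in 330, so that single UMIs do not settle the sex of a barcode. Of the 129 higher genes, 125 were above the highest other library in the Xist-only members and 92 of them by 2-fold or more, and the counts were 129 and 114 in the Y-only members. Of the 88 lower genes, 83 were below the lowest other in the Xist-only members and 57 of them were at 0.5-fold or less, and the counts were 88 and 77 in the Y-only members. The other 5 in the Xist-only members were Col9a1, Etv4 and Idi1 at ratios of 1.02, 1.02 and 1.003, and Gpr174 and Tmem150c, which had 0 UMIs there, so that their floor of 3 counts lay above the lowest other library. These members are parts of the set that chose the genes, so the counts are a description.

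Lrat (69.4 and 73.3 CPM in Xist-only and Y-only members), Fmo2 (95.1 and 89.7 CPM) and Cyr61 (1626 and 1659 CPM) were at similar levels in the members of either kind. Wfdc18 was somewhat higher in the Xist-only members, at 242 CPM (212 to 274) against 189 CPM (178 to 200). All of these levels were above every other library. Dpep1 was at 132 and 183 CPM. Efemp1, the fibroblast-enriched gene with the highest ratio, was not shared: it stood at 2.97 CPM (0.613 to 8.69) in the Xist-only members and 38.0 CPM (33.2 to 43.2) in the Y-only members, with UMIs in 1.61% and 17.7% of them. The AVN/His Y-only members had it at 2.03 CPM (1.05 to 3.54) and the right BB/PF Y-only members at 4.02 CPM (1.93 to 7.40), and in the 18 left BB/PF Y-only members 4 UMIs gave 23.6 CPM (6.43 to 60.4). The other higher genes on the opposite side in Xist-only members were Cyp27a1, Wipf3 and Ddx25, with 5, 4 and 6 UMIs there. Hspa1a stood at 453 and 825 CPM, Cd34 at 47.5 and 19.5 CPM and Prelp at 15.9 and 7.60 CPM, so that the distance from the other libraries was smaller in the Xist-only members. The part of sex or of the individual embryo in these values was not tested, and the 2 cannot be told apart here.

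**Figure D5:**
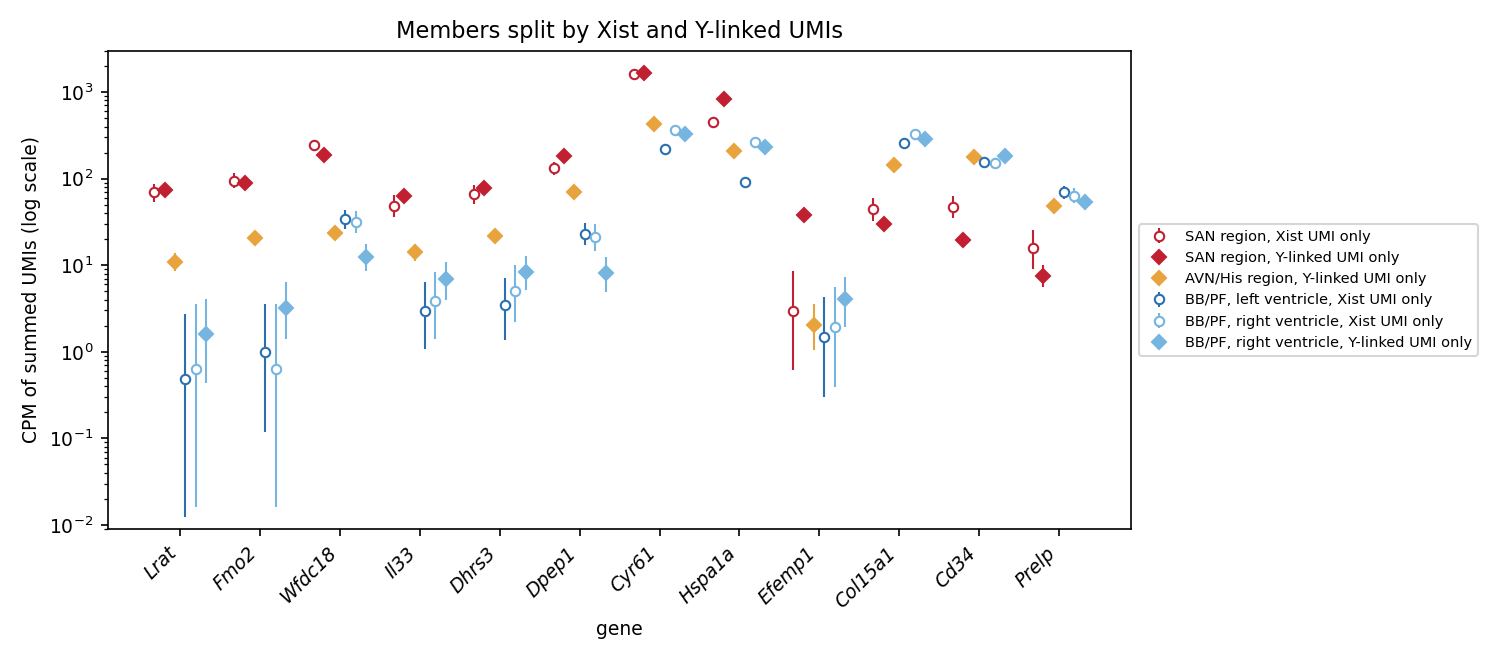
CPM (log scale) of 12 genes in Tcf21 fibroblasts with Xist UMIs only (open circles) or Y-linked UMIs only (filled diamonds), by library, with exact 95% Poisson intervals, groups at 0 UMIs not drawn and the 18 left BB/PF Y-only members left out. Lrat, Fmo2, Wfdc18 and Cyr61 overlap between both kinds of SAN members or lie close, whereas Efemp1 is at 38.0 CPM in the SAN Y-only members and at 2.97 CPM in the SAN Xist-only members.

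At equal depth the SAN share stayed the highest or the lowest for the genes given here, while the order of the other libraries could differ from that of the CPM. With each barcode thinned to 2000 UMIs, which left 723, 514, 125 and 246 members, Dpep1 was seen in 29.9%, 14.0%, 4% and 2.85% of them. The share with Lrat was 18.3% in the SAN (15.5% to 21.3%) and 3.11%, 0% and 0.407% elsewhere. Cyr61 was seen in 73.7%, 37.4%, 26.4% and 29.7%. Col15a1 was seen in 4.84%, 19.1%, 30.4% and 40.2%, and Scara5 in 0%, 6.23%, 15.2% and 5.69%, where the SAN share allows up to 0.509%. Wfdc18 was seen in 21.7%, 6.62%, 8% and 2.44%. Npr3, Tnxb and Etv1 no longer passed 2-fold under this thinning, at ratios of 1.87, 1.82 and 0.510.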

How the data were processed

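Single cells of 4 regions of E16.5 CD1 mouse hearts were sequenced on the 10x Genomics platform (3' chemistry). The authors mapped the reads to mm10 with Cell Ranger at default parameters and deposited raw UMI counts per gene and barcode, with no normalization; the version and annotation are not given in the sources used here. Barcodes were classified by the rule given in the report (pandas 2.3.3, scipy 1.17.1 and numpy 2.4.6 in Python 3.11.15), and the UMIs of the members were summed per library (2316240 to 9875177 UMIs) and scaled to 1000000 (CPM). Comparison barcodes had at least 500 genes and were not members. They had UMIs of at least 3 of Cdh5, Pecam1, Kdr, Tie1 and Emcn (endothelial), at least 3 of Csf1r, C1qa, C1qb, Fcgr3 and Tyrobp (macrophage), or a muscle score of 1.5 or more (muscle). Endothelial and macrophage barcodes also had a muscle score under 1.5, and barcodes that met both marker rules were left out.

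A gene was considered when 5% or more of the members of any library held its UMIs, and a library at 0 was set to 3 counts. Intervals of ratios are exact conditional, of CPM exact Poisson and of shares exact binomial (Clopper-Pearson), all at 95%; UMIs are not independent of barcode, so they cover counting error only. The calls were checked on simulated Poisson counts of well-covered genes, with planted changes larger than the calling limit. The other libraries shared the same mean there. The check thus does not cover genes at low levels or variation between libraries and embryos. Genes named were those of the rule and Dpep1, the 12 highest and 12 lowest ratios, the 10 highest and 10 lowest of the fibroblast-enriched genes, and the 3 highest and 2 lowest of each of 23 lists, with others marked where named. Of these, 130 in all, the ones not printed are covered by the counts. Some genes that the rule selects are not reported here. The members, lists and the split by sex-linked transcripts were chosen with earlier results of these data known. No doublets were removed; Scrublet (scanpy 1.11.5) marked 2.16%, 1.79%, 0.0588% and 0% of barcodes at its automatic threshold, which did not work in the BB/PF libraries, so a fixed score of 0.2 was used as an alternative. Other alternatives were stricter rules, thinning, edgeR 4.0.16 TMM factors (R 4.3.3), other filters and leaving out libraries. Figures were drawn with matplotlib 3.10.9.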

Additional observations from a re-analysis of the deposited data

How the results depend on the processing

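The share of SAN barcodes that were Tcf21 fibroblasts, 20.3%, was 16.3% with at least 2 Tcf21 UMIs, 18.9% with 4 or more of the 5 matrix genes, 12.2% after thinning to 2000 UMIs and 19.1% without members that met the endothelial or macrophage rule or held over 1% hemoglobin UMIs. The 129 higher and 88 lower genes became 73 and 58 after thinning to 2000 UMIs with the rule applied again (57 and 30 of them shared), 306 and 1107 with no filter on low genes, 56 and 35 with a UMI required in at least 20% of members, and 358 and 147 without the AVN/His library. Under the other alternatives, the sums thinned to the smallest total among them (chosen after seeing the data), the higher genes numbered 125 to 161 and the lower genes 84 to 123. Fewer members and fewer genes considered come with the thinned and filtered settings by construction. Of the named genes' ratios under all alternatives, 1569 stayed within the counting interval of the reported value and 166 moved outside it. No called ratio crossed 1, while some ratios that were not called did, among them Acta2 (1.34, and 0.855) and Aurkb (0.891, and 1.01) after thinning to 2000 UMIs and Cd59a (1.62, and 0.862) without the right BB/PF library. Of those called, 906 stayed past 2-fold and 8 did not. The 8 were Cxcl2 and Lyz2 without members that carried other cells' markers, Etv1, Npr3 and Tnxb (ratio 1.82) after thinning to 2000 UMIs, and Col9a3, Etv4 and Gpr174 with sums thinned to the smallest total, where Col9a3 and Gpr174 fell to the floor of 3 counts in either library. No paired analysis was possible because each region has 1 library and no result comes from a test. With 2316240 UMIs in the left BB/PF members, 3 counts correspond to 1.30 CPM, which limits ratios of genes near that level.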
